A study of Drosophila melanogaster with 18 samples.

Results

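Ovaries of Marcal1del/del females were compared with ovaries of yw females, both reared at 25 °C, by transcript level on Affymetrix Drosophila Genome 2.0 arrays. The comparison rests on 6 of the 18 arrays of the series, 3 of each genotype, chosen by genotype and temperature as the sample titles give them. Marcal1del/del flies are homozygous for a deletion in Marcal1, and yw is the control strain, named for its alleles of the body colour gene yellow and the eye colour gene white. The labels call rearing at 25 °C a heat stress relative to 20 °C, so all 6 samples carried that condition. The other arrays held yw and Marcal1del/del ovaries at 20 °C, and, likewise at 20 °C, ovaries of the stocks RpII2154/FM7 and RpII2154/FM7;Marcal1del/del, again 3 of each. RpII2154 is an allele of the gene of the largest RNA polymerase II subunit, carried over the X-chromosome balancer FM7. The design text describes replicates as biologically independent. Neither age, nor how many animals gave 1 sample, nor how far the stocks differ outside Marcal1 is stated in the sources used here, and every change below is a change between stocks.

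Marcal1 is the fly member of the SMARCAL1 family. These SNF2-type ATPases do not unwind DNA but rewind it: they anneal complementary strands that are coated with replication protein A, and in mammalian cells they act at stalled replication forks. In humans, mutations on both copies of SMARCAL1 cause Schimke immuno-osseous dysplasia, with variable penetrance. By its title the series asks whether environment and genotype, through disturbed gene expression, go along with that penetrance. The Drosophila ovary is a string of egg chambers of increasing age, in which germline nurse cells supply the oocyte while the surrounding follicle cells make yolk proteins and, at the end, the vitelline membrane and chorion of the eggshell.

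Levels are given as log2 values made by RMA, a method that adjusts background, brings arrays to a common distribution and sums up the probes of a set. A difference of 1 is therefore a 2-fold difference in normalized intensity, and a shift shared by most transcripts would not be seen. An array's median over probe sets was between 4.08 and 4.20. A group whose mean lies under every array median is described as below the array medians, because a fold from such a level measures a probe set's signal more than the transcript. Each gene was read through its probe set with the highest mean level, and a gene is called changed when its adjusted p is under 0.05 (limma on all 18 arrays, Benjamini-Hochberg adjustment over all 18769 probe sets).

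The arrays looked like ovary. The oocyte determinant osk stood between 11.99 and 12.34 on the 6 arrays and the yolk protein gene Yp1 between 12.38 and 13.49, while the neuronal marker elav stayed at 3.42 to 3.95. Pearson correlations across probe sets were 0.986 to 0.997 within a group and 0.984 to 0.993 between the groups. Muscle genes differed between single arrays: the mean of 19 muscle genes was 7.86 on yw replicate 1 and 7.22 on Marcal1del/del replicate 1, against 5.39 to 6.23 on the remaining 4. Among the 20 °C arrays, which enter the same fit, the mean of 20 eggshell genes was 9.27 on yw replicate 1 against 11.59 and 11.60 on the others, and 8.20 on RpII2154/FM7 replicate 3 against 11.96 and 12.08. RNA integrity was read from the GAPDH control probes, whose 3′ signal exceeded the 5′ signal by 1.07 ± 0.02 on the log2 scale (SD, n = 3) for yw and by 1.21 ± 0.04 for Marcal1del/del. For the actin control the excess was 0.95 ± 0.19 and 1.01 ± 0.17.

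The deleted gene itself served as a check of the labels. Marcal1 read 7.83, 8.24 and 8.27 on the yw arrays and 5.94, 6.19 and 5.96 on the Marcal1del/del arrays. The groups were far apart and did not overlap, a 4.24-fold fall (log2 change -2.08 ± 0.22 SE, adjusted p = 3.7e-05). The remaining level in Marcal1del/del was above the array medians, and the position of the probes relative to the deletion is not stated in the sources used here. The pigment gene y, mutant in yw, read 3.03 to 3.48 on all 6 arrays, with no called change (log2 change -0.01 ± 0.13 SE). No probe set named w or RpII215 alone.

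Of 11982 genes, 186 were called, which is 1.55% of the genes tested. They were 79 higher (0.659%) and 107 lower (0.893%) in Marcal1del/del. By probe set the count was 230 of 18769 (1.23%), 99 higher (0.527%) and 131 lower (0.698%). It was 366 (189 higher, 177 lower) without yw replicate 1 of each temperature and RpII2154/FM7 replicate 3, and 125 to 215 when 1 of the 6 arrays at 25 °C was left out. The 3 arrays of each genotype did not overlap for any of the 186, a condition that 17.1% of all genes met. Before adjustment, 1595 probe sets had p under 0.05, where chance alone gives 938. The median called gene changed 1.93-fold and the smallest called change was 1.28-fold. A change of at least 2-fold was reached by 87 called genes, 36 higher and 51 lower. In 31 called genes the lower group was below the array medians.

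**Figure D1:**
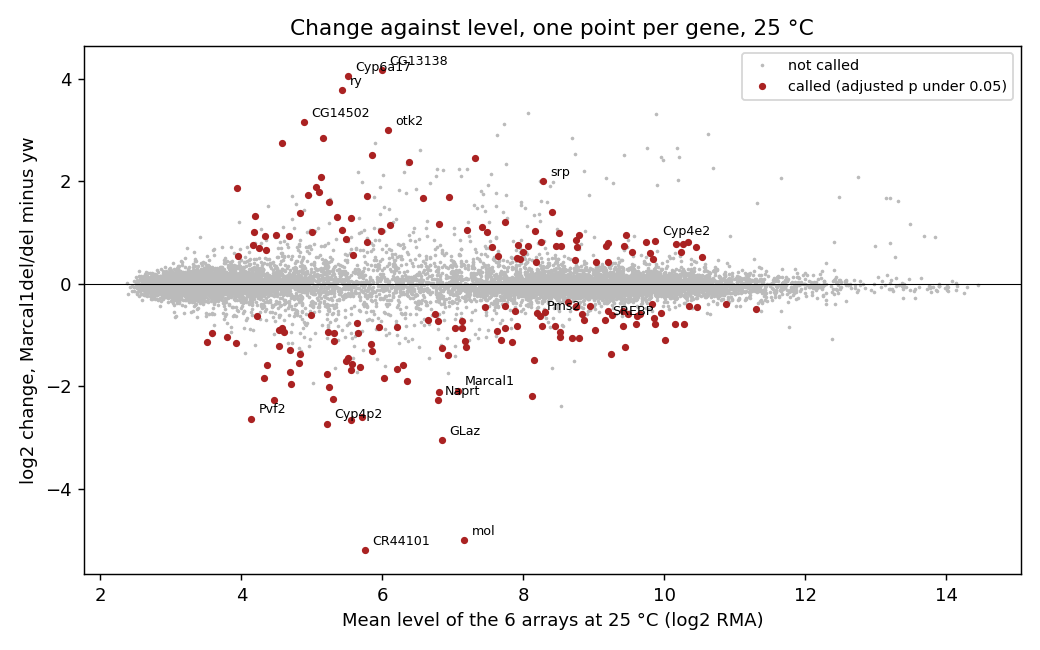
Each point is a gene, with the mean log2 level of the 6 arrays at 25 °C on the horizontal axis and the log2 change, Marcal1del/del minus yw, on the vertical axis. The 186 called genes are red. The largest called changes (mol, CR44101, CG13138, Cyp6a17) lie at mean levels of about 5 to 7, and a scatter of uncalled genes with positive changes lies at higher levels.

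Among the 15 largest called rises, 7 had a yw level below the array medians, while the Marcal1del/del level was above them. CG13138, an uncharacterized gene, read 3.75, 3.60 and 4.37 in yw and 8.25, 7.86 and 8.12 in Marcal1del/del (log2 change 4.17 ± 0.43 SE, adjusted p = 3.7e-05). CG5096, CG14502 and CG44153 showed the same picture, with yw means of 3.73, 3.32 and 3.20 and Marcal1del/del means of 6.58, 6.46 and 5.94. The 3 further probe sets that name CG44153 had changes of 0.01, -0.02 and -0.19, none called, so that the rise was seen by 1 of its 4 sets. Rises from a measured yw level included CG4676, at 5.65, 6.33 and 6.27 in yw and 8.47, 8.56 and 8.61 in Marcal1del/del, and Mrp5, a gene of the ABCC class of membrane transporters. Mrp5 was tight on both sides, at 5.12 to 5.23 against 7.38 to 7.83 (log2 change 2.38 ± 0.13 SE, adjusted p = 1.2e-08).

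Among the 15 largest called falls, 5 had a Marcal1del/del mean below the array medians, and the yw means of all 15 lay between 5.46 and 9.66. The product of mol is required for the NADPH oxidase Duox to mature. It read 9.18, 10.10 and 9.71 in yw and 4.17, 4.98 and 4.84 in Marcal1del/del, a 32-fold fall (SE 0.29 on the log2 scale, adjusted p = 3.3e-08). The oxidase genes were not called: Duox stood at 9.01 to 9.13 in yw and 8.88 to 9.23 in Marcal1del/del, and Nox, the other NADPH oxidase gene, changed by -0.12 ± 0.39 SE. The noncoding CR44101 went from 8.19, 8.58 and 8.30 to 3.52, 2.88 and 3.08, the largest change of any gene (log2 change -5.20 ± 0.21 SE), and ended below the array medians. GLaz, a lipocalin related to apolipoprotein D, read 8.18, 8.47 and 8.47 in yw and 5.28, 5.21 and 5.47 in Marcal1del/del. Its relatives were not called: NLaz changed by 1.28 ± 0.45 SE (adjusted p = 0.30) and Karl by -0.10 ± 0.20 SE.

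**Figure D2:**
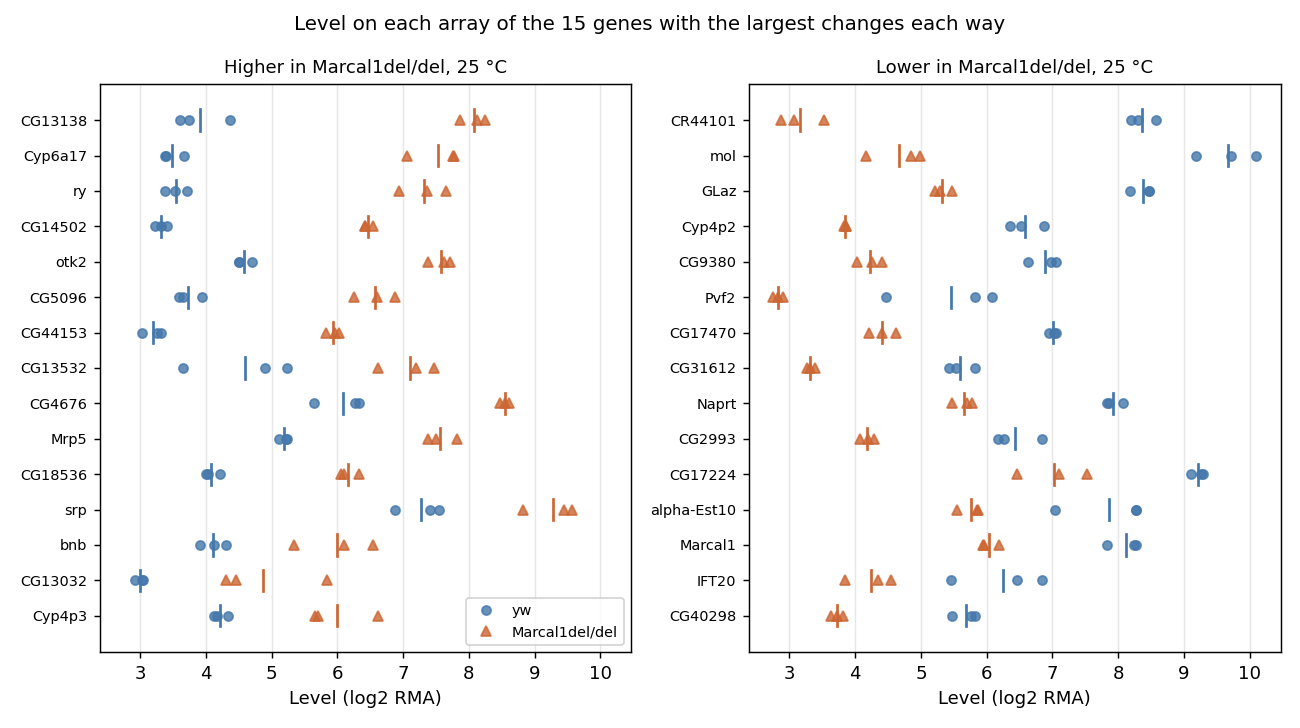
Log2 RMA level on each 25 °C array (circles yw, triangles Marcal1del/del, vertical bars group means, n = 3) for the 15 genes with the largest called rise and the 15 with the largest called fall. The points of both genotypes are separate for all 30 genes, which the rule that chose them required. The points of 1 genotype spread widely for Pvf2, CG13532 and IFT20 in yw and for CG13032 in Marcal1del/del.

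The calls of some of the largest changes did not hold under every alternative. Pvf2, a ligand of the PDGF/VEGF receptor Pvr, read 4.47 on yw replicate 1 but 5.82 and 6.08 on the other yw arrays, against 2.75 to 2.90 in Marcal1del/del (log2 change -2.63 ± 0.48 SE, adjusted p = 0.0094). That yw replicate 1 is the array with the high muscle mean. Without it the change of Pvf2 was -3.12, and with the muscle mean as a covariate it was -2.72, both called. The call ended without yw replicate 2 or 3 (adjusted p up to 0.065). The receptor gene Pvr (-0.28 ± 0.30 SE) and the ligand genes Pvf1 (0.02 ± 0.11 SE) and Pvf3 (-0.05 ± 0.18 SE, below the array medians) were not called. CG13032, in turn, read 5.85 on Marcal1del/del replicate 2 and 4.46 and 4.30 on the others, and its call ended without any 1 of 5 arrays, all except Marcal1del/del replicate 3 (adjusted p up to 0.18). For bnb, at 3.91 to 4.31 in yw and 5.34, 6.10 and 6.54 in Marcal1del/del, the call ended without any 1 of 5 arrays, all except Marcal1del/del replicate 1 (adjusted p up to 0.25), and also with the eggshell mean as a covariate (log2 change 1.18, adjusted p = 0.059, against 1.88 without it). CG40298 read 5.47, 5.76 and 5.82 in yw and 3.63 to 3.81 in Marcal1del/del, and its call ended without replicate 3 of either genotype (adjusted p up to 0.057).

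Cytochrome P450 genes encode heme enzymes that oxidize hormones, fatty acids and foreign compounds, and they held more calls than any other list that was counted. Of 73 measured, 3 rose and 5 fell against 1.55% of all genes called, and the median change of the list was -0.09 against -0.02 over all genes. In both genotypes 26 of the 73 were below the array medians. Cyp6a17, studied in flies for temperature preference, read 3.38, 3.66 and 3.40 in yw and 7.07, 7.77 and 7.76 in Marcal1del/del (log2 change 4.05 ± 0.20 SE, adjusted p = 4.9e-09). Its chromosomal neighbour Cyp6a23 moved the other way, from 5.79, 6.63 and 6.76 to 4.35, 4.81 and 4.95 (log2 change -1.69 ± 0.27 SE, adjusted p = 0.0026). Such close paralogs may share probe sequence, which cannot be checked from the values.

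The Cyp4p genes, which lie side by side, showed the same split. Cyp4p2 read 6.35, 6.87 and 6.52 in yw and 3.83, 3.86 and 3.86 in Marcal1del/del, and Cyp4p1 read 5.07, 5.31 and 5.62 against 3.97, 4.11 and 4.06. Cyp4p3 went up, from 4.12, 4.17 and 4.34 to 5.71, 5.66 and 6.63 (log2 change 1.79 ± 0.38 SE, adjusted p = 0.027). The Cyp4p3 call ended when any 1 of the 6 arrays was left out (adjusted p up to 0.17), while the Cyp4p2 call held in each such fit. Cyp4e2 rose from 9.32 to 9.69 in yw to 10.20 to 10.33 in Marcal1del/del, and Cyp6a13 (-1.84 ± 0.29 SE) and Cyp6d2 (-0.85 ± 0.16 SE) fell. Of these 8 genes, Cyp6a23, Cyp4p1, Cyp4e2 and Cyp6d2 were named after their values were seen. A probe set naming both Cyp12d1-d and Cyp12d1-p was lower by 1.66 on the log2 scale. The set that represents Cyp12d1-d alone changed by -0.65 and was not called. Glutathione transferases, which conjugate oxidized compounds, had 1 rise and 1 fall among 34, against 1.55% of all genes called. These were GstE13 (0.96 ± 0.17 SE) and GstT3 (-0.63 ± 0.08 SE). The GstE13 call was lost on leaving out replicate 3 of yw, and on leaving out replicate 2 of Marcal1del/del (adjusted p up to 0.052).

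The share of called genes was set out by chromosome arm. On 2L and 2R, 2.09% and 2.18% of the measured genes were called, and on 3L, 3R and X 1.32%, 1.08% and 1.17%. No gene of the 65 measured on the fourth chromosome was called. Of the 400 measured genes nearest to Marcal1 on 2L, 200 on each side, 11 were called (2.75%). Among the 184 called genes with a position in Release 6 of the genome, 19 (10.3%) had another called gene as their next measured neighbour, against 2.90% of the uncalled genes. These neighbours formed 11 adjacent pairs, 7 moving the same way and 4 in opposite directions. No test of placement was made.

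**Figure D3:**
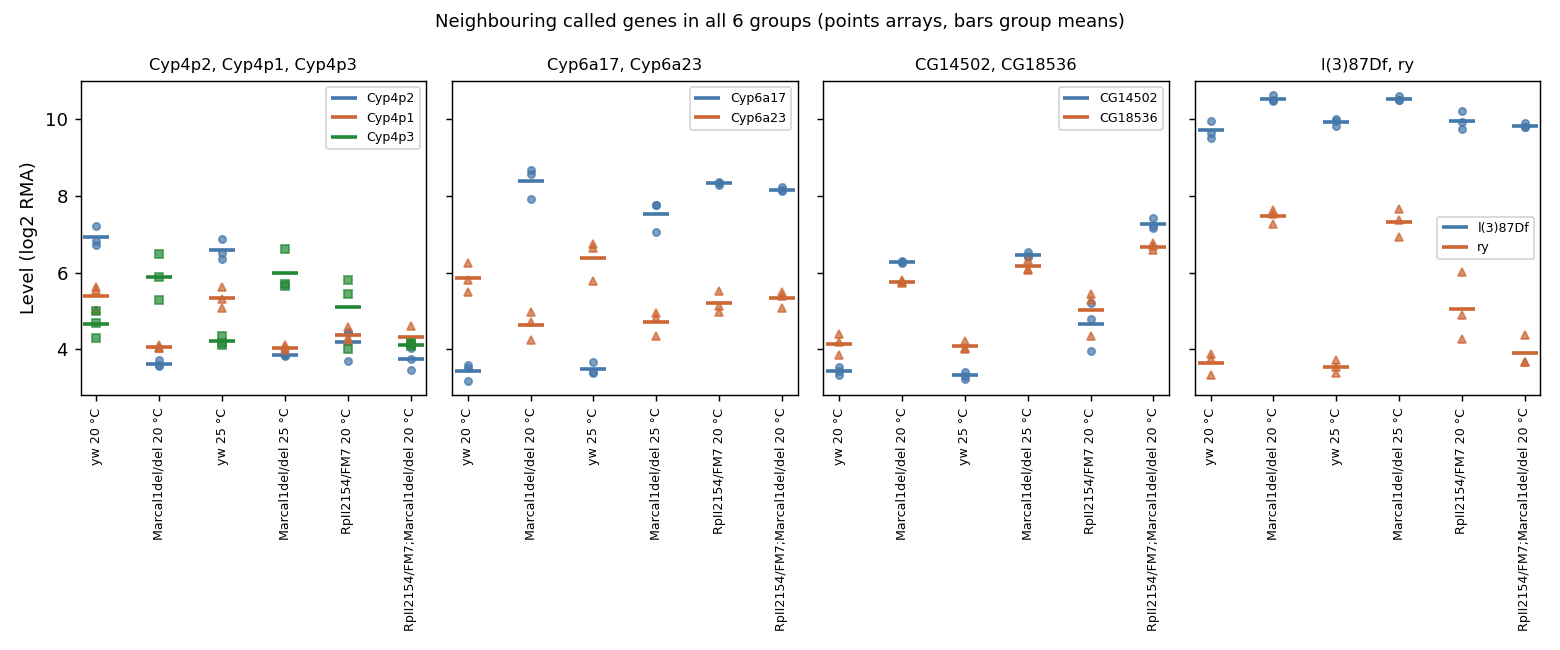
Log2 RMA levels of 4 sets of neighbouring called genes in all 6 groups of the series (points arrays, bars group means, n = 3), with yw and Marcal1del/del at 20 and 25 °C on the left of each panel and both RpII2154/FM7 groups at 20 °C on the right. Marcal1del/del differs from yw in the same way at both temperatures in every panel. Cyp6a17 is high in both RpII2154/FM7 groups, with and without the deletion, on arrays of other stocks and another identifier series.

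Neighbours that moved together were seen on several arms. CG14502 and CG18536, adjacent on 2R, rose by 3.15 ± 0.20 and 2.08 ± 0.21 SE. On 3R, ry and l(3)87Df rose side by side: ry, the xanthine dehydrogenase gene of purine breakdown and eye pigment synthesis, read 3.54, 3.39 and 3.71 in yw and 7.65, 7.36 and 6.94 in Marcal1del/del. Its neighbour l(3)87Df read 9.82, 9.96 and 10.01 in yw and 10.51, 10.62 and 10.50 in Marcal1del/del (log2 change 0.61 ± 0.12 SE, adjusted p = 0.018). On 2L, 3 genes in a row fell, Ccdc85 (-1.83 ± 0.22 SE), CG17224 (-2.19 ± 0.47 SE) and CG17264 (-0.96 ± 0.18 SE). The CG17224 call ended without any 1 of 5 arrays, all except Marcal1del/del replicate 3 (adjusted p up to 0.15). The neighbours in this paragraph were chosen after their values were seen, except for genes among the 15 largest changes each way.

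Other purine and cofactor genes were not called with ry. Of 14 measured members of the purine breakdown and molybdenum cofactor list, ry was the only call, and the median change was 0.05. In the NAD synthesis list of 10 genes, Naprt, the entry enzyme of the route from nicotinic acid, was likewise the only call. It read 8.08, 7.83 and 7.86 in yw and 5.47, 5.71 and 5.77 in Marcal1del/del (log2 change -2.27 ± 0.19 SE, adjusted p = 4.2e-06). The later enzymes Nmnat (0.02 ± 0.16 SE) and Nadsyn (0.45 ± 0.19 SE, adjusted p = 0.49) were not called. In the ABC transporter list of 21 genes Mrp5 rose and Mdr49 fell (-0.86 ± 0.20 SE, adjusted p = 0.048). Lists of 10 to 21 genes are short, so such counts say little beside the 1.55% of all genes called. The Mdr49 call ended without any 1 of 5 arrays, all except yw replicate 1 (adjusted p up to 0.25 over all alternatives).

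Of 25 sphingolipid and lipid genes, 3 fell and none rose, against 1.55% of all genes called. SREBP, the membrane-bound transcription factor of fatty acid synthesis genes, read 9.63, 9.45 and 9.48 in yw and 8.95, 8.70 and 8.79 in Marcal1del/del (log2 change -0.71 ± 0.12 SE, adjusted p = 0.0067, and 0.051 without Marcal1del/del replicate 2). SCAP, which escorts SREBP to its cleavage in the Golgi, read 9.28, 9.25 and 9.40 in yw and 8.29, 8.12 and 8.38 in Marcal1del/del (-1.05 ± 0.11 SE, adjusted p = 5.5e-05). AcCoAS, acetyl-CoA synthetase, went from 9.94 to 10.17 in yw to 8.71 to 8.90 in Marcal1del/del (-1.22 ± 0.11 SE, adjusted p = 8.9e-06). SCAP and AcCoAS are not on that list and were singled out after their values were seen. Lipid genes outside the list were also called in the other direction, among them Elo68beta (log2 change 1.32) and Agpat2 (0.61), likewise named after their values were seen. The synthesis genes on the list were not called: FASN1 changed by -0.16 ± 0.44 SE, ACC by -0.18 ± 0.15 SE and Desat1 by -0.06 ± 0.12 SE. The other falls of the list were GLaz and the ceramidase gene bwa (-1.26 ± 0.26 SE, adjusted p = 0.022), and the median change of the 25 was -0.16. The call of bwa was lost on leaving out any 1 of 4 arrays, replicates 1 and 3 of yw and replicates 1 and 2 of Marcal1del/del (adjusted p up to 0.13).

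Among receptor tyrosine kinase genes and their relatives, 21 in all, otk2 rose and Pvf2 fell, against 1.55% of all genes called. The gene otk2 encodes a transmembrane protein of the off-track family, relatives of vertebrate PTK7 that bind Wnt receptors. It read 4.51, 4.71 and 4.51 in yw and 7.63, 7.71 and 7.38 in Marcal1del/del, the lowest adjusted p of any gene (log2 change 3.00 ± 0.10 SE, adjusted p = 6.1e-11). Its paralog otk was below the array medians in both genotypes (change 0.00 ± 0.21 SE). The GATA transcription factor gene srp, a hemocyte and fat body regulator, was the only call among 19 hemocyte genes, against 1.55% of all genes. It read 7.54, 6.88 and 7.41 in yw and 9.56, 8.82 and 9.44 in Marcal1del/del (2.00 ± 0.41 SE, adjusted p = 0.021). The call ended without any 1 of 4 arrays, yw replicates 2 and 3 and Marcal1del/del replicates 1 and 3 (adjusted p up to 0.11). The other hemocyte markers were not called: Hml was at 4.50 to 4.82 on all 6 arrays, eater at 3.05 to 3.26, below the array medians, and Pxn was 8.57 on yw replicate 1 against 5.29 to 6.41 on the other 5.

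Some called genes of moderate or high level, chosen after their values were seen, had small standard errors. HDAC1, a histone deacetylase of several corepressor complexes, read 10.10, 10.45 and 10.25 in yw and 9.43, 9.48 and 9.54 in Marcal1del/del (-0.79 ± 0.10 SE, adjusted p = 0.00026). Dad, the inhibitory Smad of BMP signalling, read 8.37, 8.14 and 8.19 in yw and 7.27, 7.02 and 7.14 in Marcal1del/del (-1.09 ± 0.16 SE, adjusted p = 0.0013). The heparan sulfate N-sulfotransferase gene sfl fell by 1.17 on the log2 scale, from 6.36 to 6.50 in yw to 5.19 to 5.29 in Marcal1del/del. In the opposite direction moved Naglu, a lysosomal enzyme gene of heparan sulfate breakdown, from 9.15 to 9.59 up to 9.97 to 10.25 (0.81 ± 0.13 SE, adjusted p = 0.0026). Idh3b, a subunit of the mitochondrial isocitrate dehydrogenase, fell by 0.95 on the log2 scale, while the oxidative phosphorylation list as a whole had no call. All 5 were also called at 20 °C in the same direction.

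Eggshell genes had higher mean levels in Marcal1del/del, but no single member was called. The mean over 20 chorion and vitelline membrane genes was 10.51, 9.87 and 10.64 in yw and 11.73, 11.86 and 11.95 in Marcal1del/del, with no overlap. Of the 20, 18 had a positive change and 16 had no overlap (17.1% of all genes), and the median change was 1.64 against -0.02 over all genes, of which 46.0% were positive. The chorion gene Cp36 read 11.92, 12.37 and 12.83 in yw and 14.08, 13.88 and 14.14 in Marcal1del/del, with the lowest adjusted p of the list, 0.15 (1.66 ± 0.48 SE). For Cp18 the same kind of separation, 11.55 to 12.02 against 13.72 to 13.95, stood beside an SE of 1.58. The fit pools the spread of all 6 groups, and Cp18 ran from 5.10 to 13.66 within RpII2154/FM7 and from 10.23 to 13.24 within yw at 20 °C. The list means of yw and Marcal1del/del overlapped at 20 °C, at 9.27, 11.60 and 11.59 against 12.09, 12.10 and 11.37. They averaged 10.75 in RpII2154/FM7, where replicate 3 read 8.20, and 10.03 in RpII2154/FM7;Marcal1del/del. The 2 members without a positive change at 25 °C were fs(1)N (0.00 ± 0.10 SE) and clos (-0.24 ± 0.21 SE). The yolk protein genes Yp1, Yp2 and Yp3 had changes of 0.74, 0.79 and 0.81 (adjusted p = 0.35, 0.51 and 0.74).

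The eggshell genes were part of a larger group with large but uncalled changes. At least 2-fold but uncalled were 112 genes higher and 42 lower in Marcal1del/del, 99 and 25 of them with no overlap, and 15 of the 112 were on the eggshell list. The standard errors of the 112 had a median of 0.66, against 0.23 for called genes of at least 2-fold. The highest were Muc4B (3.32 ± 0.92 SE, adjusted p = 0.12) and yellow-g2 (3.31 ± 0.89 SE, adjusted p = 0.11), followed by CG10163 (3.11, adjusted p = 0.082) and yellow-g (2.92 ± 0.84 SE, adjusted p = 0.15). These were named after their values were seen. Relatives of yellow, yellow-g and yellow-g2 are needed for a rigid eggshell in flies. On yw replicate 1, yellow-g2 read 6.47, against 8.82 and 9.38 on the other yw arrays and 11.20 to 11.86 in Marcal1del/del. In bulk ovary, more late egg chambers and more RNA per late egg chamber cannot be told apart. With the eggshell mean of each array as a covariate, 178 probe sets were called in place of 230.

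The lists of the germline and of genome maintenance are short, and against the 1.55% of all genes called, a count near that share says nothing particular about them. Of 28 germline and oocyte genes, 27 piRNA pathway genes, 33 replication genes and 21 follicle cell patterning genes none was called, with median changes of 0.11, 0.02, -0.18 and 0.02. For replication genes only 3 of 33 changes were positive, and the mean of the list was 9.47, 9.76 and 9.67 in yw and 9.50, 9.43 and 9.47 in Marcal1del/del, with yw replicate 1 inside the Marcal1del/del range. Apart from Marcal1 itself, none of the 14 SNF2-family genes measured was called, among them brm (-0.14 ± 0.14 SE), Iswi (-0.10 ± 0.13 SE) and XNP (-0.01 ± 0.12 SE). In the mismatch and break repair list, Pms2 was the only call among 26. Its partner genes of mismatch recognition and excision, Msh6 (-0.02 ± 0.21 SE) and tos (-0.09 ± 0.09 SE), did not pass. No member was called, against 1.55% of all genes, in the transcription and housekeeping lists: RNA polymerase II and elongation (22 genes, median change -0.06), ribosomal proteins (23, -0.07), oxidative phosphorylation (37, -0.04) and the proteasome (26, -0.15). All 26 proteasome genes had a negative change, from -0.33 to -0.03, and over all genes 46.0% of changes were positive. The mean of the 26 was 11.25, 11.47 and 11.45 in yw and 11.18, 11.28 and 11.25 in Marcal1del/del. Here too yw replicate 1 lay inside the Marcal1del/del range. At 20 °C the median change of the proteasome list was 0.04.

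Heat shock and immune genes were looked at because the labels call 25 °C a heat stress. None of 17 heat shock and chaperone genes was called, against 1.55% of all genes (median change -0.07), with Hsp26 at 12.83 to 13.53 in yw and 13.15 to 13.22 in Marcal1del/del. Hsp27 had the largest change of the list, -0.39 ± 0.15 SE (adjusted p = 0.40). None of the 20 genes on the immune list was called, against 1.55% of all genes. The immune gene PGRP-LA, which is not on that list and was named after its values were seen, was called lower (log2 change -0.95). The antimicrobial peptide genes Def and Drs varied within Marcal1del/del, with Def at 8.22, 4.84 and 8.97 and Drs at 8.57, 4.67 and 9.53, low on replicate 2 in both cases. No gene was called among the muscle (19), fat body (13), gut (23), spermatheca and oviduct (12), testis (22) and neuron (13) markers, nor among the cell death (14) and ecdysone (24) lists. In lists this short, no call is near the 1.55% of all genes. Below the array medians in both genotypes were 16 of the gut, 8 of the spermatheca and oviduct, 19 of the testis and 8 of the neuron markers.

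**Figure D4:**
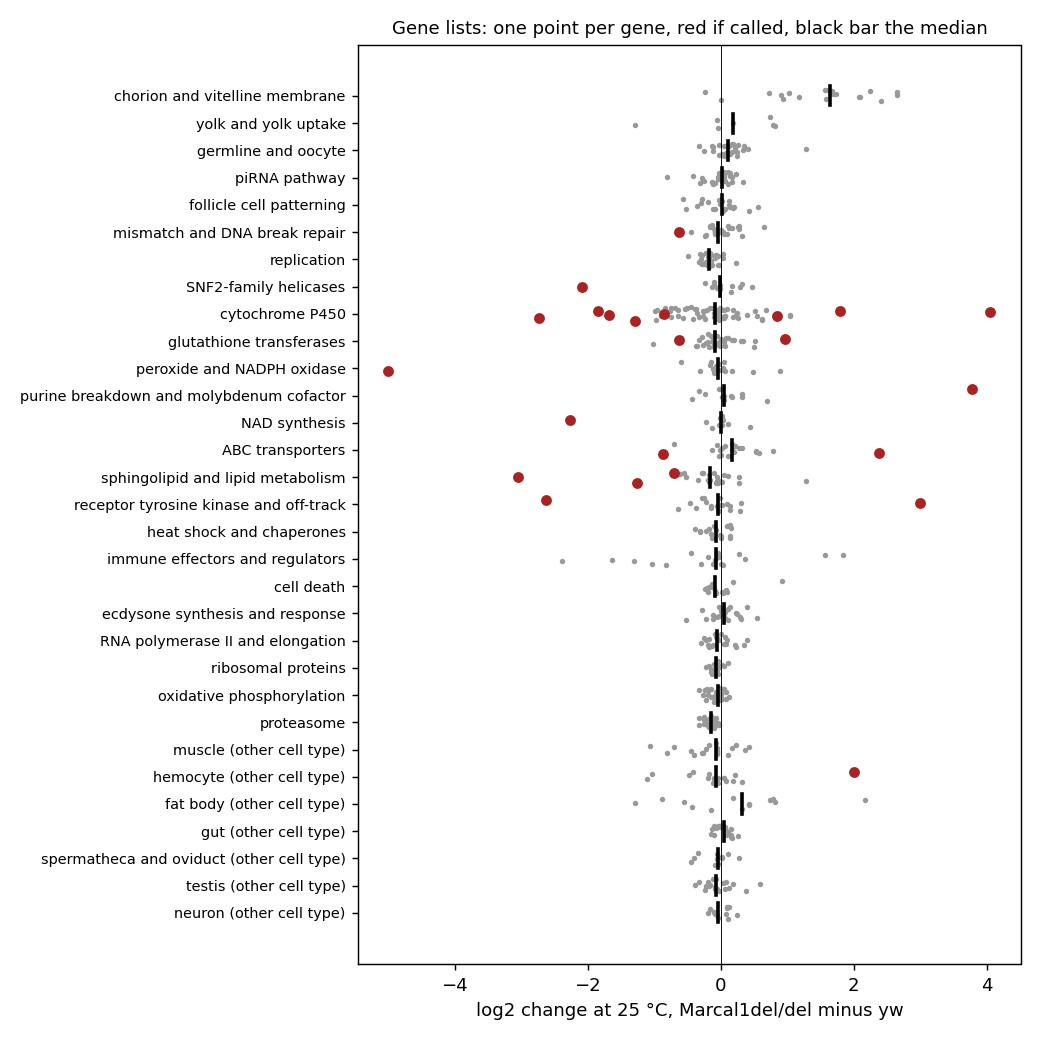
Log2 change at 25 °C, Marcal1del/del minus yw, of every measured member of each gene list (red points called, grey points not called, black bars medians). Calls were most numerous among the P450 genes, 3 higher and 5 lower, and the chorion and vitelline membrane list had the highest median, 1.64, with no call.

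The 25 °C changes were set beside the same comparison at 20 °C, which compares other arrays of the same genotypes. Both comparisons come from the same fit and share its estimate of the spread of each probe set, so their calls are not independent. Of the 186 genes called at 25 °C, 107 were called in the same direction at 20 °C, which is 57.5% of the 25 °C calls and 61.1% of the 175 calls at 20 °C, where 1.46% of genes were called. None was called in the opposite direction. The 79 genes called at 25 °C but not at 20 °C all had the same sign at 20 °C. Whether an effect of the deletion differed between the temperatures was tested as a difference of log2 changes, and 2 of 11982 genes passed (0.0167%), otk2 and Pms2, which were also the only probe sets to pass (0.0107%). Before adjustment, 295 probe sets had p under 0.05 for this difference, fewer than the 938 that chance alone gives.

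The level of otk2 was higher in Marcal1del/del at both temperatures, and by more at 25 °C. In Marcal1del/del the level was 5.59, 5.46 and 5.37 at 20 °C and 7.63, 7.71 and 7.38 at 25 °C, while yw stayed at 4.48 to 4.69 and 4.51 to 4.71. The log2 changes were 0.89 ± 0.10 SE at 20 °C and 3.00 ± 0.10 SE at 25 °C, a difference of 2.11 (95% interval 1.80 to 2.42, adjusted p = 2.6e-06). Pms2, which encodes an endonuclease subunit of mismatch repair, was low in Marcal1del/del mainly at 20 °C. It read 6.18, 5.75 and 5.87 there and 7.84, 7.90 and 8.02 at 25 °C, against 8.25 to 8.54 and 8.22 to 8.85 in yw. The fall was 5.44-fold at 20 °C and 1.54-fold at 25 °C, a difference of log2 changes of 1.82 (95% interval 1.40 to 2.25, adjusted p = 0.0010). The call of Pms2 at 25 °C alone was weak, with an adjusted p of 0.041 that rose to at most 0.21 among the alternatives, and it ended without any 1 of 5 arrays, all except yw replicate 1.

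For every other gene called at 25 °C the difference between the temperatures did not pass, with adjusted p of 0.19 or more. That does not show that the changes were equal, and some intervals were wide. The gene wake, a regulator of clock-neuron output in flies, changed by 1.10 ± 0.22 SE at 25 °C and by 0.08 at 20 °C, with an unadjusted 95% interval of the difference of 0.36 to 1.69. For mthl8, of the methuselah-like receptor family, the changes were -1.90 ± 0.42 SE and -0.27, and the interval was -2.90 to -0.37. For mol the yw and Marcal1del/del levels were 9.66 and 4.66 at 25 °C and 9.55 and 4.36 at 20 °C, and for ry the changes were 3.77 and 3.83. Both wake and mthl8 were named after their values were seen.

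**Figure D5:**
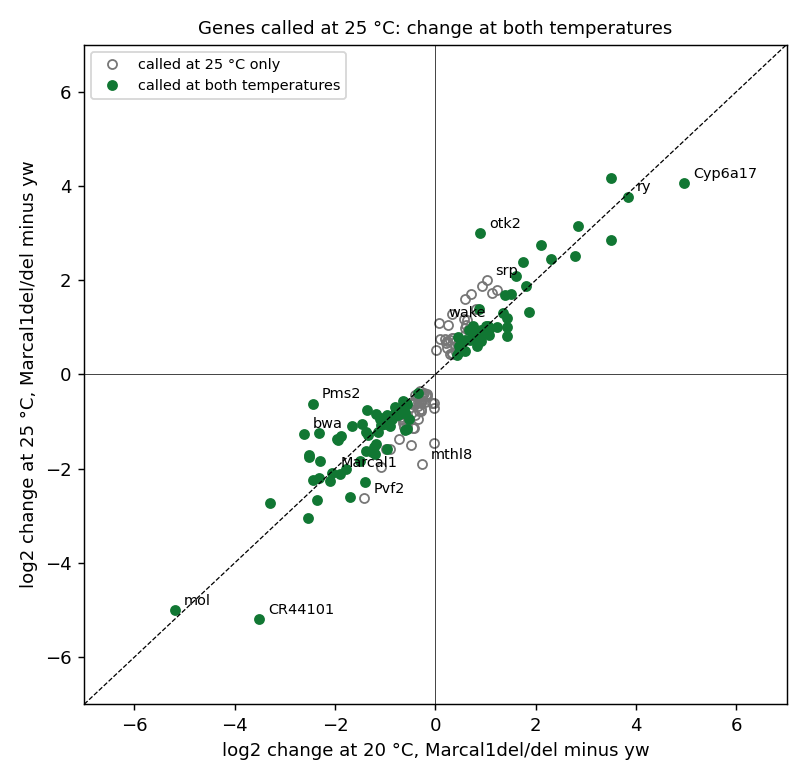
Log2 change, Marcal1del/del minus yw, at 20 °C (horizontal) and 25 °C (vertical) for the 186 genes called at 25 °C, with filled points for the 107 also called at 20 °C in the same direction and the dashed line marking equal change. Points follow the line, with otk2 above it and Pms2 closer to 0 at 25 °C, the 2 genes whose difference passed the test.

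The deletion was also present in a further stock, RpII2154/FM7;Marcal1del/del, measured at 20 °C beside RpII2154/FM7 on arrays whose labels carry another identifier series. Of the 186 genes called at 25 °C, 18 were called in the same direction in that pair and 9 in the opposite direction. The 18 are 9.68% of the 25 °C calls and 6.62% of the 272 genes called there, where 2.27% of genes were called. Among the 30 largest changes at 25 °C, 7 were called in the same direction in the RpII2154/FM7 pair and 2 in the opposite direction. The 7 were Marcal1, CG14502, CG18536, CG13532, GLaz, Naprt and CR44101. GLaz stood at 7.59 without and 5.12 with the deletion in this background, next to 8.37 and 5.32 for the 25 °C pair. Naprt stood at 8.73 and 5.89, next to 7.92 and 5.65.

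Several of the largest changes were not called in the RpII2154/FM7 pair. The level of mol was 9.44 without and 9.63 with the deletion, next to 9.66 and 4.66 for the 25 °C pair. Cyp6a17 was high in both, at 8.33 without and 8.17 with the deletion. For CG17470 the direction turned: at 25 °C it went from 7.01 to 4.41 with the deletion, but from 5.19 to 6.90 with the deletion in the RpII2154/FM7 background. CG4676 turned as well, from a rise of 2.46 at 25 °C to a change of -1.04 (adjusted p = 0.0063) in the RpII2154/FM7 pair. The difference between these comparisons was not tested, since temperature, array series and stock change together.

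Beyond the named genes, 31 called probe sets had no gene of their own, 24 with no gene listed and 7 listing several. The largest changes of the former were a fall from 8.83 to 4.60 and a rise from 3.90 to 7.41 (group means). Among those listing several, the set naming shn and Cyp6v1 rose by 3.12, from 7.26, 4.76 and 4.97 on the yw arrays. The set that represents Cyp6v1 alone changed by 0.05 and was not called. The set naming the proteasome genes Prosalpha1R and Prosalpha1 fell from 12.51 to 11.58. Where a named gene had further probe sets, these could disagree. For the receptor tyrosine phosphatase gene Ptp10D, singled out after its values were seen, the representing set rose by 1.01 ± 0.17 SE and another set changed by -0.86, both called.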

How the data were processed

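The authors deposited log2 values for each array and probe set, computed by RMA per the submitters' processing notes. Neither its version nor the annotation behind it is stated in the sources used here. From 18952 probe sets, 183 controls were set aside. Of 18769 tested with no filter, 13647 named 1 gene, 402 several and 4720 none, by GEO's platform annotation with symbols updated by gene identifier to Release 6 (13544 matched). Chromosome arms and gene order come from Release 6. No 2 arrays held identical values.

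All 18 arrays were fitted with limma 3.58.1 in R 4.3.3 on 6 groups (residual degrees of freedom 12, prior 3.85), 2-sided, with Benjamini-Hochberg adjustment over probe sets. The number of arrays limits the precision. In simulated data for this comparison, folds were set for 200 of 18769 probe sets. The fit called 56% of those set to 1.5-fold, 92% at 2-fold and 98% at 4-fold, and 6.49% of its 185 calls were wrong. The simulated noise was independent between probe sets and arrays and equal in all groups, with no array standing apart. These rates therefore need not hold for the measured arrays.

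Alternatives left out each of the 6 arrays at 25 °C in turn, 3 arrays together or the other groups, added a replicate block, a covariate, array weights or a trend, or filtered dim probe sets. Members and gene lists were chosen with earlier results of these data known. Named by rule were Marcal1, RpII215, w and y, the 15 largest called rises and falls without overlap, up to 4 called members of each list by size, and genes called for the difference between temperatures. Genes of the 32 lists without a probe set of their own were not counted. The RpII2154/FM7 replicates 2 and 3 name other balancers in 1 label field, and the titles were followed. The main fit did not pair arrays by replicate number. Deviations from the group means at 25 °C correlated at 0.47, 0.07 and 0.30 for equal numbers and at -0.45 to 0.39 for unequal numbers. With 3 arrays a group, these values cannot decide whether arrays of equal number belong together.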

Additional observations from a re-analysis of the deposited data

Results flagged for a closer look

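The difference between the changes at 25 and 20 °C passed the test for otk2, at a log2 difference of 2.11 (adjusted p = 2.6e-06, limma), and for Pms2, at 1.82 (adjusted p = 0.0010). For otk2 the 3 Marcal1del/del arrays at 25 °C (7.38 to 7.71) lay above the 3 at 20 °C (5.37 to 5.59), and the RpII2154/FM7 groups at 20 °C averaged 6.84 and 7.09. For Pms2 the 3 Marcal1del/del arrays at 20 °C (5.75 to 6.18) lay below every other array of the series, among them those of RpII2154/FM7;Marcal1del/del at 8.47 to 8.61.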

How the results depend on the processing

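Against 230 called probe sets (99 higher, 131 lower), leaving out 1 array at 25 °C gave 125 to 215 in all, 51 to 91 higher and 72 to 124 lower. Among these, dropping yw replicate 2 left 138 and yw replicate 3 left 131. Dropping replicate 2 of Marcal1del/del left 125, and its replicate 3 left 131. Array weights, whose estimate did not converge, gave 1233 (579 higher, 654 lower) and 12 differences between temperatures in place of 2. Leaving out the 3 arrays that stand apart (yw replicate 1 of each temperature and RpII2154/FM7 replicate 3) gave 366 (189 higher, 177 lower; 192 shared with the 230) and 13 differences, with otk2 and Pms2 kept. With the replicate number as a block, 214 were called. The 6 arrays at 25 °C alone gave 245 (147 higher, 98 lower), the filter on dim probe sets 277 and the muscle mean as a covariate 297. Of 37 named called genes, 25 kept the call in all 15 alternatives that were run, 12 lost it in at least 1, and none turned its direction. Mdr49, CG13032, Pms2, bnb, bwa, Pvf2 and CG17224 also lost it in settings other than leaving out 1 array, with the replicate block for bnb and Mdr49. Choosing each gene's probe set by variance gave 188 called genes in place of 186.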
